A study of Mus musculus with 36 samples.

Results

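The loss of transcripts after a block of transcription was compared between N4bp1 KO and WT bone marrow-derived macrophages (BMDMs). The comparison took in every library with 3 h of R837 and a stated time in actinomycin D (ActD), which made 30 of the 36 libraries of the series: 15 from KO cells and 15 from WT cells. Each genotype was sampled after 0, 0.5, 1, 2 and 4 h of ActD, with 3 libraries per genotype and time, and the 0 h libraries had R837 but no ActD. All cells were grown from marrow of C57BL/6N animals in M-CSF, and each of the 3 replicates was said to be a separate mouse. The labels gave the genotypes as N4bp1 KO and WT but not the deleted part of the gene, and the culture description, shared by all libraries, named wild-type donors only. Whether the same mice were sampled at each time was not stated, so times were not paired. KO and WT marrow came from different animals, so differences of litter or culture cannot be told apart from the genotype.

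R837 (imiquimod) is a small-molecule ligand of the endosomal receptor TLR7, which switches on NF-kB and with it a wave of short-lived cytokine and early response mRNAs. ActD binds DNA and stops RNA polymerase. Where the block is complete, an mRNA can afterwards only be lost, and the rate of its loss reads its stability. Whether the block was complete here was not tested. N4BP1 is a suppressor of cytokine production in macrophages that caspase-8 cleaves, and it carries an RNase domain related to that of Regnase-1 (Zc3h12a), an enzyme that cleaves inflammatory mRNAs. The readout of interest is therefore whether the change over time differs between the genotypes: a transcript that KO cells degrade more slowly would keep more of its 0 h level than in WT cells.

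Library totals ran from 20271550 to 46107214 counts, and 13537 genes passed the filter on low counts. Values below are CPM after TMM scaling (counts as a share of the library's scaled total), which states each transcript relative to the average one. Without an external standard a stable mRNA rises on this scale while the pool around it shrinks, so a "share left" is relative and can exceed 100 percent, and no half-life in hours was computed. The effect of interest is the KO change minus the WT change in log2 units. A positive value means that KO cells kept more of their 0 h level. Defining macrophage markers were abundant in both genotypes: at 0 h, Lyz2 averaged 14000 CPM in KO and 15630 CPM in WT cells, and Adgre1 (F4/80) 2339 CPM in KO and 1887 CPM in WT cells. The summed level of the 16 macrophage markers was 25640 to 30320 CPM in KO and 25820 to 30380 CPM in WT libraries at 0 h, and 45350 to 47310 CPM in KO and 49440 to 65990 CPM in WT libraries at 4 h. Among neutrophil markers, Ctsg and Elane had 810 and 595 counts in KO 0 h replicate 1, and 1510 and 877 in WT 0.5 h replicate 2. The other libraries of these groups had 50 to 138 counts of Ctsg and 83 to 128 of Elane. The summed neutrophil markers of KO 0 h replicate 1 (651.2 CPM) were not above those of replicates 2 and 3 (663.2 and 772.2 CPM). For WT 0.5 h replicate 2 the sum (690.8 CPM) was the highest of its group (528.6 and 680.1 CPM in replicates 1 and 3). S100a9 alone had 8496 counts in KO 0 h replicate 1, so the sums say little about Ctsg and Elane. In bulk RNA, fewer cells of a type and less RNA per cell cannot be told apart.

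By 4 h similar numbers of transcripts had fallen in both genotypes. After 4 h, 2967 genes in KO and 2952 genes in WT cells stood at least 2-fold below their 0 h level at an adjusted p below 0.05 (edgeR quasi-likelihood test with Benjamini-Hochberg adjustment). At 2 h these were 1831 genes in KO and 1724 genes in WT cells, and at 1 h 821 genes in KO and 589 genes in WT cells. The first time at which a transcript was under 50 percent of its 0 h mean was the same in both genotypes for 2074 of the 3556 genes that were ever under it (103 genes at 0.5 h, 392 at 1 h, 758 at 2 h and 821 at 4 h). It was earlier in KO cells for 859 genes and earlier in WT cells for 623, with no test of single genes behind these counts. The most frequent mismatches were 243 genes at 1 h in KO and 2 h in WT cells, and 229 genes not under that level by 4 h in KO cells but at 4 h in WT cells. At 1 h the genotype difference depended on transcript length, as described below, and that trend was not removed from any of these counts. Nfkbia, the feedback inhibitor of NF-kB, was one of the fast transcripts. It had 1318, 1423 and 1405 CPM in KO libraries and 1180, 1148 and 1189 CPM in WT libraries at 0 h. By 4 h it had 14.95, 15.08 and 13.90 CPM in KO libraries and 10.57, 13.78 and 12.02 CPM in WT libraries. The groups did not overlap at either time, with KO higher at both, and the genotype difference in the change was 0.03 (95% interval -0.19 to 0.25, adjusted p = 0.964).

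Few genes differed between KO and WT in the change over the full 4 h. The test at 4 h against 0 h called 11 genes, of which KO cells kept 8 more and 3 less (0.0813%, 0.0591% and 0.0222% of the 13537 genes tested, edgeR quasi-likelihood test, adjusted p below 0.05). The median difference over all genes was -0.06. The split was 13 and 0 with RLE size factors and 12 and 0 when libraries were scaled to ribosomal protein and elongation factor mRNAs. The 8 were N4bp1 itself, Slco4a1, Btla, Srsf4, Sqstm1, Rcsd1, H2-Eb1 and H2-Aa. The 3 were Cd200r4, Fcgr1 and Hmox2. Of these, N4bp1, Sqstm1, Rcsd1, Srsf4 and H2-Aa stayed called under each of 9 other ways of processing the counts and without any 1 of the 30 libraries. Leaving out 1 library moved the count by over 1.5 times in 8 cases: it was 20 without KO 4 h replicate 2, 21 without WT 4 h replicate 3, 20 without WT 0.5 h replicate 1 or replicate 3, 7 without KO 0 h replicate 1 or WT 0 h replicate 1, and 6 without KO 0 h replicate 2 or WT 0 h replicate 2. For 9992 genes (73.8%) the 95% interval of the difference lay within 1 log2 unit of 0, and for 7165 genes (52.9%) within 1.5-fold, and for the other genes the interval reached past that bound.

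**Figure D1:**
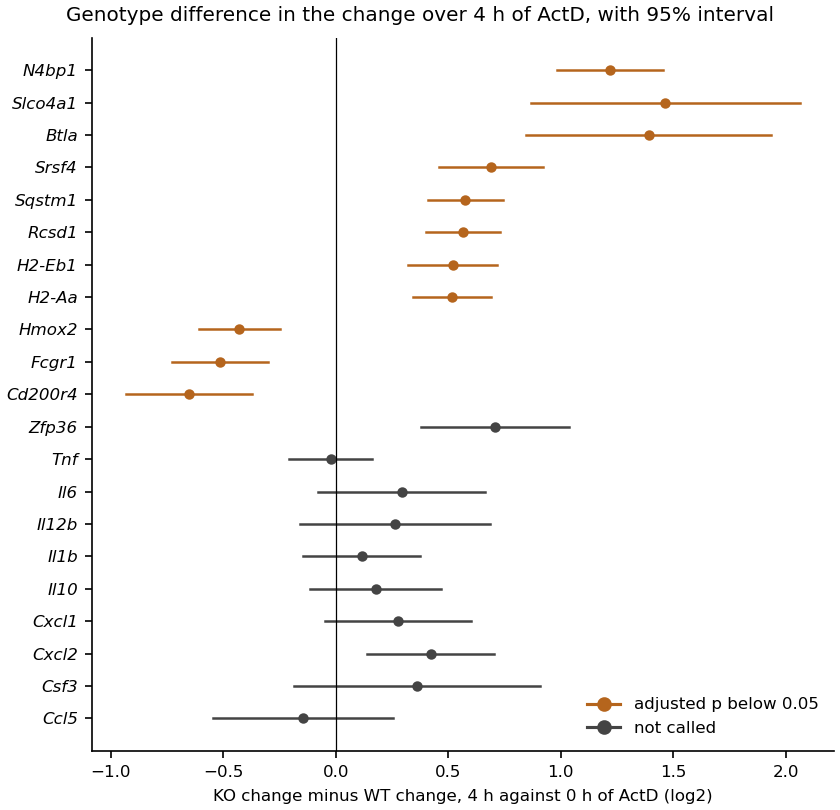
KO change minus WT change between 0 and 4 h of ActD (x axis, log2) for the 11 genes called at 4 h, Zfp36 and 9 cytokine and chemokine genes, as estimates (points) with 95% intervals (lines). N4bp1 stands at 1.22, the 3 genes kept less in KO lie between -0.65 and -0.43, and the interval of Tnf spans 0 narrowly, from -0.21 to 0.16.

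The transcript of the targeted gene showed the firmest difference. N4bp1 (ENSMUSG00000031652; chr8:86808160-86885258, minus strand, GRCm38) still had exon counts in KO cells. At 0 h it had 86.60, 86.30 and 83.05 CPM in KO libraries, against 123.9, 146.9 and 127.1 CPM in WT libraries. At 2 h it had 87.85, 82.44 and 84.82 CPM in KO libraries, against 88.58, 76.20 and 74.43 CPM in WT libraries. At 4 h it had 95.86, 94.10 and 79.77 CPM in KO libraries, against 65.99, 58.02 and 56.35 CPM in WT libraries. KO libraries were all below WT libraries at 0 h, overlapped them at 2 h and were all above them at 4 h. Relative to the average transcript, 105 percent of the 0 h level was left in KO cells at 4 h and 45.3 percent in WT cells. The KO minus WT difference in the change was 0.73 ± 0.11 (SE) at 2 h (adjusted p = 0.00399) and 1.22 ± 0.12 at 4 h (adjusted p = 4.47e-08, edgeR quasi-likelihood test, n = 3 libraries per group). At 2 h the call was lost when libraries were scaled to ribosomal protein and elongation factor mRNAs (0.69, adjusted p = 0.812). The counts cover all exons together and the deletion is not described, so RNA of the KO allele cannot be told apart from the full-length form.

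Sqstm1, Rcsd1 and Srsf4 fell in both genotypes and less far in KO cells. Sqstm1 encodes p62, the autophagy receptor that also scaffolds NF-kB and NRF2 signalling. It had 2493, 2602 and 2630 CPM in KO and 2310, 2232 and 2186 CPM in WT libraries at 0 h, and 1771, 1893 and 1839 CPM in KO and 1031, 1072 and 1113 CPM in WT libraries at 4 h. KO lay above WT at both times without overlap, and the gap was wider at 4 h: 71.2 percent of the 0 h level was left in KO and 47.8 percent in WT cells. The difference in the change was 0.57 ± 0.08 (SE; adjusted p = 2.1e-04).

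Rcsd1 encodes a regulator of the actin capping protein CapZ. At 0 h it had 154.0, 158.9 and 156.9 CPM in KO libraries, against 101.0, 95.15 and 95.39 CPM in WT libraries. At 4 h it had 82.93, 79.25 and 83.62 CPM in KO libraries, against 35.20, 34.93 and 33.06 CPM in WT libraries. The genotypes did not overlap at either time, 52.3 percent was left in KO and 35.4 percent in WT cells, and the difference in the change was 0.56 ± 0.08 (SE; adjusted p = 2.1e-04).

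Srsf4, an SR protein that takes part in the choice of splice sites, had 36.73, 36.99 and 35.89 CPM in KO and 31.34, 35.50 and 33.89 CPM in WT libraries at 0 h. By 4 h it had 16.53, 17.82 and 14.94 CPM in KO and 8.307, 10.06 and 9.594 CPM in WT libraries. The gap at 0 h was narrow, and at 4 h every KO library was well above every WT library (difference in the change 0.69 ± 0.11, SE; adjusted p = 0.00219). It was the one called gene of 18 tested SR splicing factors, whose median difference was 0.02 against -0.06 for all genes. For Sqstm1 at 1 and 2 h the differences were 0.19 and 0.34 (adjusted p = 0.139 and 0.224), and for Srsf4 -0.14 and 0.20 (adjusted p = 0.406 and 0.753), so the calls rest on 4 h.

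**Figure D2:**
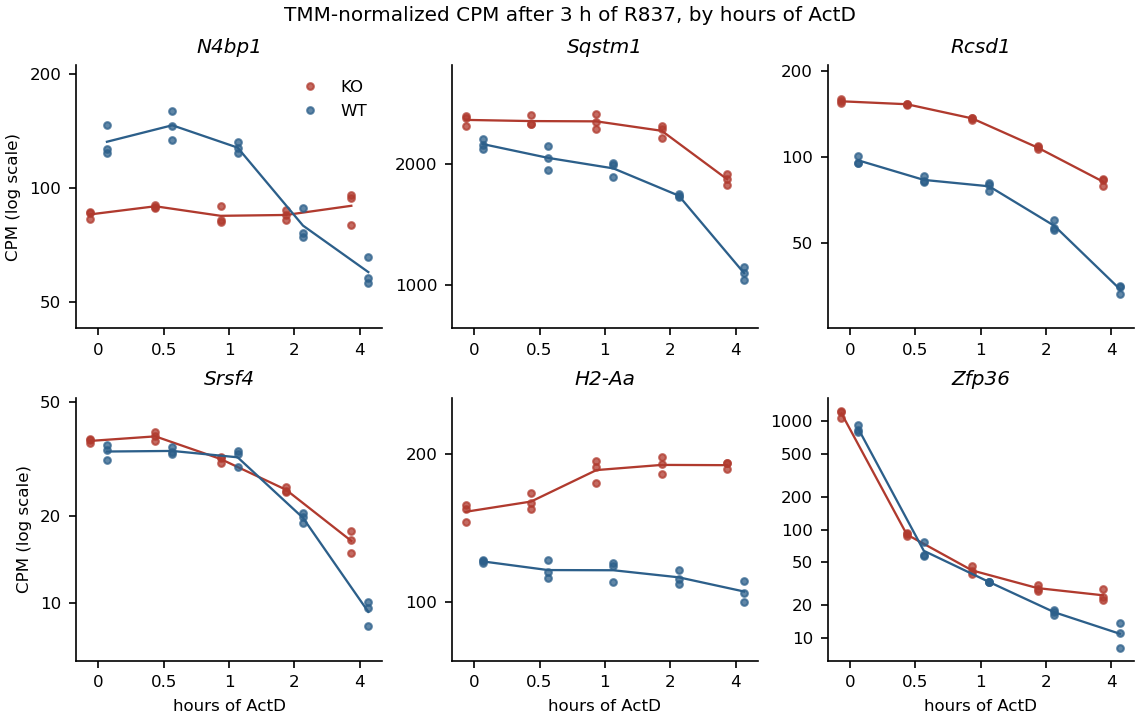
CPM of 6 transcripts (y axes, log scale) by hours of ActD (x axes, evenly spaced steps) in KO (red, left of each time) and WT cells (blue, right), with 1 point per library and lines through the means of 3. N4bp1 stays level in KO cells and declines in WT cells after 1 h, Sqstm1, Rcsd1 and Srsf4 decline later or less in KO cells, and H2-Aa rises on this relative scale in KO cells and not in WT cells.

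KO cells kept more of 2 MHC class II chains, H2-Aa and H2-Eb1. H2-Aa, the alpha chain of I-A, presents peptides to CD4 T cells together with H2-Ab1, and H2-Eb1 is the beta chain of I-E. H2-Aa had 145.7, 154.6 and 157.6 CPM in KO and 122.0, 121.2 and 120.1 CPM in WT libraries at 0 h, and 186.3, 191.3 and 191.5 CPM in KO and 100.4, 104.7 and 110.6 CPM in WT libraries at 4 h. The libraries of the genotypes were apart at both times, and further apart at 4 h. Differences in the change were 0.52 ± 0.09 (SE) for H2-Aa (adjusted p = 0.00219) and 0.52 ± 0.10 for H2-Eb1 (adjusted p = 0.015). The H2-Eb1 call was lost without KO 0 h replicate 1 (0.47, adjusted p = 0.0666) or WT 0 h replicate 1 (0.50, adjusted p = 0.0534). It was also lost with only the 12 libraries of the contrast (0.59, adjusted p = 0.0619). H2-Ab1 did not pass at 4 h, with a difference of 0.48 (adjusted p = 0.142, and 0.00198 with the length trend described below removed).

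Other class II pathway genes, looked up after these values were seen, did not pass the test at 4 h. The differences were 0.33 for Cd74, the invariant chain (adjusted p = 0.443), 0.01 for H2-DMa and -0.11 for H2-DMb1, chains of the peptide-loading chaperone (adjusted p = 0.99 and 0.828). H2-DMb1 was called over the whole course (adjusted p = 0.0477). Ciita, the class II transactivator, was low (mean at 0 h 1.62 CPM in KO cells, against 1.12 CPM in WT cells), with a difference of 0.04 (adjusted p = 0.991). B cells and dendritic cells also express class II. The summed CPM of 8 B and plasma cell markers was 158.8 to 170.6 in KO and 86.69 to 95.96 in WT libraries at 0 h, and 129.1 to 130.9 in KO and 56.40 to 66.93 in WT libraries at 4 h. At 0 h, 4 of the 8 were called higher in KO (Jchain, Igkc, Ighm and Cd79b) and 1 lower (Ms4a1). Igkc averaged 82.7 CPM in KO and 35.9 CPM in WT cells, and Cd79b, a chain of the B cell receptor complex, 6.36 CPM in KO and 4.44 CPM in WT cells. The summed CPM of the 6 tested dendritic cell markers, which include H2-Ab1, was 151.5 to 173.8 in KO and 124.6 to 132.9 in WT libraries at 0 h, and 172.1 to 198.4 in KO and 105.2 to 118.0 in WT libraries at 4 h. At 0 h, 3 of them were called higher in KO (Itgax, Ccr7 and H2-Ab1) and 1 lower (Clec9a), while Flt3 averaged 0.32 CPM in KO and 0.43 CPM in WT cells. The part of such cells in the class II result was not tested.

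Slco4a1 and Btla had larger estimates at low levels. Slco4a1, an organic anion transporter, had 16.00, 13.36 and 12.61 CPM in KO and 8.600, 7.888 and 6.368 CPM in WT libraries at 0 h. At 4 h it had 5.108, 5.091 and 4.004 CPM in KO and 0.639, 1.416 and 0.636 CPM in WT libraries. KO was above WT throughout, and the difference in the change was 1.47 ± 0.29 (SE; adjusted p = 0.0324). Btla, an inhibitory lymphocyte receptor also found on myeloid cells, had 6.525, 6.810 and 8.574 CPM in KO and 11.11, 11.80 and 9.488 CPM in WT libraries at 0 h. Its order was turned at 4 h except for an overlap by 1 KO library, with 4.269, 2.306 and 4.350 CPM in KO and 1.801, 1.652 and 2.948 CPM in WT libraries (difference 1.39 ± 0.27, SE; adjusted p = 0.0196). With only the 12 libraries of the contrast neither gene was called (1.53, adjusted p = 0.0822 for Slco4a1 and 1.46, adjusted p = 0.101 for Btla). Slco4a1 was also not called with scaling to ribosomal protein and elongation factor mRNAs (1.60, adjusted p = 0.0961). Each of the 2 calls was lost without any 1 of 7 libraries, all from 0 h or 4 h. For Slco4a1 these were KO 4 h replicate 1 (1.46, adjusted p = 0.0558), WT 4 h replicates 1 and 3 (1.35 and 1.34, adjusted p = 0.0932 and 0.0611), KO 0 h replicates 2 and 3 (1.43 and 1.40, adjusted p = 0.0665 and 0.0867) and WT 0 h replicates 1 and 2 (1.37 and 1.44, adjusted p = 0.0865 and 0.087). For Btla they were KO 4 h replicate 1 (1.32, adjusted p = 0.0636), WT 4 h replicates 1 and 2 (1.37 and 1.30, adjusted p = 0.0619 and 0.0862), KO 0 h replicates 1 and 2 (1.31 and 1.35, adjusted p = 0.0666 and 0.055) and WT 0 h replicates 1 and 2 (1.37 and 1.32, adjusted p = 0.0523 and 0.0818).

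Fcgr1, Cd200r4 and Hmox2 gained on the average transcript in WT cells and less so, or not at all, in KO cells. Fcgr1, the high-affinity IgG receptor, had 616.6, 684.6 and 692.0 CPM in KO and 775.2, 830.4 and 849.4 CPM in WT libraries at 0 h. At 4 h it had 1014, 949.2 and 1048 CPM in KO and 1641, 1722 and 1938 CPM in WT libraries. WT was above KO at both times, and the difference in the change was -0.52 ± 0.11 (SE; adjusted p = 0.0362). Cd200r4, a paired receptor of the CD200R family, left 127 percent in KO and 200 percent in WT cells (-0.65, adjusted p = 0.0481). Hmox2, the constitutive heme oxygenase, left 91.3 percent in KO and 123 percent in WT cells (-0.43, adjusted p = 0.0423). With RLE size factors these 3 were not called, with differences of -0.46 for Fcgr1 (adjusted p = 0.104), -0.60 for Cd200r4 (adjusted p = 0.107) and -0.38 for Hmox2 (adjusted p = 0.112), and the 13 genes called were all kept more in KO. Of the 30 fits that each left out 1 library, 10 called Fcgr1, 7 Cd200r4 and 7 Hmox2, with the differences of Fcgr1 between -0.57 and -0.37.

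Cytokine transcripts, the best known outputs of TLR7, often differed in level at 0 h, and none of the 34 tested was called for its change over 4 h, where 0.0813% of all genes were. At 0 h, 16 of the 34 were called higher in KO and 4 lower, against 15.9% and 8.79% of all genes. Tnf had 1759, 1726 and 1777 CPM in KO and 883.3, 904.2 and 881.4 CPM in WT libraries at 0 h. After 0.5 h of ActD it had 107.0, 108.5 and 112.8 CPM in KO and 56.48, 61.22 and 60.61 CPM in WT libraries. At 4 h it had 47.67, 45.44 and 43.23 CPM in KO and 23.35, 25.44 and 21.38 CPM in WT libraries. KO lay about as far above WT at 4 h as at 0 h, by 0.96 and 0.98 log2 units. The share left at 0.5 h was 6.24 percent in KO and 6.68 percent in WT cells, and the difference in the change over 4 h was -0.02 (95% interval -0.21 to 0.16, adjusted p = 0.967). With TMM scaling, a 4 h difference of Tnf beyond about 0.21 log2 units thus lies outside its interval. Under 9 other ways of processing the counts the estimate ran from -0.023 to 0.115, without a call.

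Il6 and Cxcl1 fell within 0.5 h in both genotypes and then climbed on the relative scale. Il6, the acute-phase cytokine, had 82.06, 98.58 and 114.6 CPM in KO and 31.92, 37.36 and 41.36 CPM in WT libraries at 0 h. At 1 h it had 24.87, 22.37 and 21.44 CPM in KO and 6.223, 5.837 and 6.637 CPM in WT libraries, and at 4 h 57.34, 47.89 and 50.78 CPM in KO and 14.58, 14.73 and 18.73 CPM in WT libraries. The genotypes never overlapped, and the difference in the change was 0.47 at 1 h (adjusted p = 0.121) and 0.29 at 4 h (95% interval -0.08 to 0.67, adjusted p = 0.687). Cxcl1, a neutrophil-attracting chemokine, left 35.3 percent in KO and 29.2 percent in WT cells at 4 h, a difference of 0.28 (95% interval -0.05 to 0.60, adjusted p = 0.65). Il10, the anti-inflammatory cytokine, left 46.6 percent in KO and 41.3 percent in WT cells (0.18, 95% interval -0.11 to 0.47). Csf3, which encodes G-CSF, was low (mean at 0 h 4.72 CPM in KO cells, against 3.13 CPM in WT cells), and its interval was wide (0.36, -0.19 to 0.91).

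Cxcl2, another neutrophil attractant, came closest to a call among the 9. At 0 h it had 759.1, 758.5 and 911.0 CPM in KO and 450.3, 458.5 and 551.0 CPM in WT libraries. At 1 h it had 268.4, 255.3 and 253.8 CPM in KO and 107.0, 88.93 and 109.2 CPM in WT libraries, and at 4 h 680.5, 675.5 and 662.9 CPM in KO and 294.9, 262.9 and 349.0 CPM in WT libraries. KO was higher in every library at these times. The difference in the change was 0.62 at 1 h (adjusted p = 0.0155; 0.54 and adjusted p = 0.0895 once the dependence on transcript length described below was removed) and 0.42 at 4 h (95% interval 0.14 to 0.70, adjusted p = 0.312). Over the whole course its adjusted p was 0.0505. Il1b, Il12b and Ccl5 were not lost at all relative to the average transcript: their shares left at 4 h were 136, 296 and 313 percent in KO and 126, 247 and 347 percent in WT cells. Their differences in the change at 4 h were 0.11, 0.26 and -0.15 (adjusted p = 0.856, 0.761 and 0.889). For scale, the median change of ribosomal protein and elongation factor mRNAs over 4 h was 0.655 log2 units in KO and 0.768 in WT cells. Whether transcripts that climbed were still being made under ActD was not tested.

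**Figure D3:**
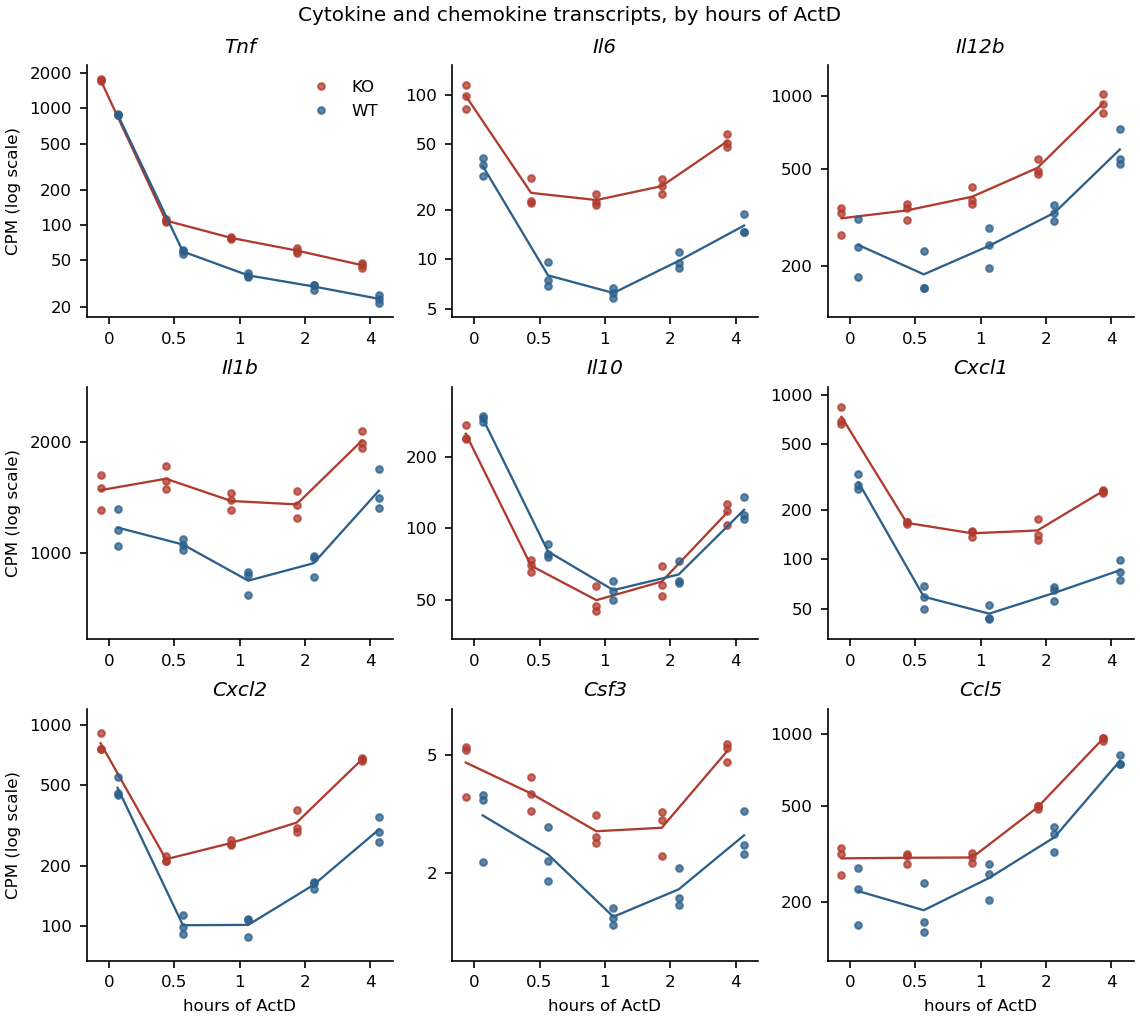
CPM of 9 cytokine and chemokine transcripts (y axes, log scale) by hours of ActD (x axes, evenly spaced steps) in KO (red, left) and WT cells (blue, right), with 1 point per library and lines through the means of 3. The 2 lines of Tnf run in parallel, 0.98 log2 units apart at 0 h and 0.96 at 4 h, and several chemokines climb on this relative scale from 1 to 4 h in both genotypes.

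AU-rich elements in 3' untranslated regions are the binding sites through which tristetraprolin (Zfp36) and related proteins bring mRNAs to deadenylation. The core nonamer TTATTTATT was searched on the transcribed strand, overlaps counted, in the 3' untranslated region of 1 transcript per gene, the one with the longest coding sequence (GENCODE M21, GRCm38), for the 11403 tested genes that have one. It was absent from 10595 of them (92.9%), present once in 646 (5.67%) and at least 2 times in 162 (1.42%). Sites of the short-lived transcripts are shown to make the motif visible, 29 bases each, 5' to 3' on the strand of the gene, with the nonamers in capitals.
Tnf, chr17:35199678-35199706, minus strand: tatttaTTATTTATTTATTATTTATTtat
Cxcl2, chr5:90905336-90905364, plus strand: atctatgtatTTATTTATTTATTaattcc
Cxcl1, chr5:90892615-90892643, plus strand: atttatgtatTTATTTATTccacaaagtg
Zfp36, chr7:28376951-28376979, minus strand: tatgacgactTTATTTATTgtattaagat
The Tnf site holds overlapping copies, with 5 nonamers in its whole 3' untranslated region, against 4 in Cxcl2, 2 in Cxcl1 and 1 in Zfp36. None was found in that of N4bp1, Sqstm1, Srsf4, Rcsd1 or H2-Aa, nor in Il6, Il1b, Il12b or Il10, which says only that these letters are absent there.

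Genes with 2 or more nonamers had a lower median change than all genes in both genotypes. Their median change over 4 h was -0.45 in KO and -0.47 in WT cells, beside -0.10 in KO and -0.03 in WT cells for all 11403 genes. Genes with 1 nonamer had -0.42 in KO and -0.35 in WT cells. Genes with 2 or more also had longer exons (median 4602 bases, against 3230 for all) and 3' untranslated regions (2689.5 against 949 bases). The part of length in their lower change was not tested. The median difference in the change was -0.04 for genes with 2 or more nonamers and -0.06 for all. Of the 162, 6 (3.7%) were called in the test over the whole course, against 5.03% of the 11403. Among 24 known AU-rich transcripts, the median change in the first 0.5 h was -1.15 in KO and -1.47 in WT cells. The median of their single differences at 0.5 h was 0.07, beside -0.007 for all genes. None of the 24 was called at 0.5 h, where 0 of all genes were, or at 4 h (0.0813% of all genes). Zfp36, which carries such a site itself, fell steeply: it had 1252, 1221 and 1082 CPM in KO and 835.2, 918.2 and 793.6 CPM in WT libraries at 0 h, and 28.30, 23.68 and 22.29 CPM in KO and 13.65, 11 and 8.091 CPM in WT libraries at 4 h. KO was above WT in every library at both times, and the difference of 0.71 at 4 h missed the threshold (adjusted p = 0.068) but passed it once the dependence on transcript length described below was removed (adjusted p = 0.0259). Fos, an AP-1 subunit, also differed over the whole course (adjusted p = 0.0361), with 1.08 at 4 h (adjusted p = 0.0901). Its counts at 4 h were low: 58, 35 and 31 in KO and 15, 17 and 14 in WT libraries. Over the whole course 2 of the 24 AU-rich transcripts were called (8.33%, against 4.52% of all genes). With the length trend removed 1 was called, against 0.635% of all genes.

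At 1 h the picture was different. There KO cells kept 171 genes more (1.26%) and 666 less (4.92%, together 6.18% of those tested), while the 0.5 h contrast called 0 genes (366 at an unadjusted p below 0.05, and 0 with DESeq2) and the 2 h contrast called 2 (0.0148%), N4bp1 as kept more and Vcpip1 as kept less (0.00739% each). With the ribosomal scaling the 1 h split was 11 and 3290, and the median over all genes was -0.37, against -0.04. All 4 contrasts share the 0 h libraries. The direction at 1 h followed transcript length. Exons of the genes kept less in KO spanned a median of 6592 bases, those of the genes kept more 1198 bases, and those of all genes tested 2880 bases. In the tenth of genes with the shortest exons the median difference at 1 h was 0.26, and in the tenth with the longest it was -0.41, whereas at 4 h these medians were -0.11 and -0.09. Across genes, which are not independent replicates and share the libraries, Spearman's rho between the difference and exon length was -0.51 at 1 h and 0.03 at 4 h.

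The same dependence was seen in single libraries. Spearman's rho across genes between a library's level, relative to the mean of all libraries, and exon length was 0.05, -0.04 and -0.07 in KO 1 h libraries and 0.23, 0.30 and 0.29 in WT 1 h libraries. At 0 h it was 0.46, 0.38 and 0.24 in KO libraries and 0.19, 0.28 and 0.10 in WT libraries. With a smooth trend on exon length taken out of each library, the 1 h contrast called 0 genes (3436 had an unadjusted p below 0.05 before that step), the 2 h contrast called 1 (0.00739%), and the 4 h contrast called 21 (0.155%), among them all 11 named above. What gives rise to the length dependence was not tested.

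**Figure D4:**
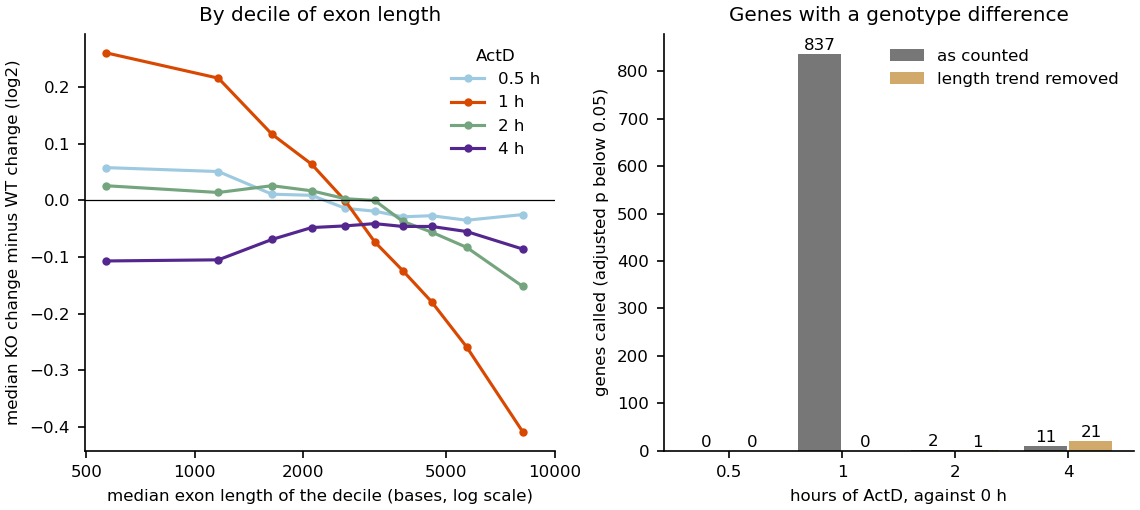
Left, median KO change minus WT change (y axis, log2) in 10 classes of genes by exon length (x axis, bases, log scale), with 1 line per time of ActD against 0 h. Right, number of genes called at each time as counted (grey) and with the length trend of each library removed (tan). The 1 h line goes down from 0.26 to -0.41 with length, and of the 171 and 666 genes called at 1 h as counted 0 are called with the trend removed.

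Among genes called at 1 h and over the whole course with a mean of at least 5 CPM, Usp42, a deubiquitinase, had the largest difference of those kept less in KO. It had 14.11, 13.32 and 10.21 CPM in KO and 8.964, 10.74 and 8.259 CPM in WT libraries at 0 h, and 3.859, 3.849 and 3.833 CPM in KO and 5.250, 5.780 and 6.637 CPM in WT libraries at 1 h. KO was higher at 0 h but for an overlap by 1 library, and lower without overlap at 1 h (difference -1.04 ± 0.20, SE; adjusted p = 0.011). It was -0.84 with the length trend removed (adjusted p = 0.0895). Usf3, Fryl and Pde3b followed with -1.03, -1.0 and -0.95 (adjusted p = 0.0147, 0.0117 and 0.0135). Ccr7, the chemokine receptor that guides dendritic cells to lymph nodes, had the largest of those kept more under the same limits. At 0 h it had 18.16, 17.83 and 20.05 CPM in KO and 10.68, 10.85 and 10.37 CPM in WT libraries, and at 1 h 8.932, 6.135 and 8.895 CPM in KO and 2.920, 1.765 and 2.035 CPM in WT libraries. KO was higher without overlap at both times, and the difference was 1.03 ± 0.23 (SE; adjusted p = 0.0147). It was 0.97 with the length trend removed (adjusted p = 0.0895). At 2 and 4 h its differences were 1.45 and 2.00 (adjusted p = 0.116 and 0.068). The 1 h call was lost without KO 1 h replicate 3 (0.95, adjusted p = 0.0617), WT 1 h replicate 2 (0.86, adjusted p = 0.0551) or KO 0 h replicate 1 (1.01, adjusted p = 0.0577). Rpl13a-ps1, Lyzl4 and Ly6d had 0.75, 0.75 and 0.74 (adjusted p = 0.0241, 0.0236 and 0.0135), and Rpl13a-ps1 is a pseudogene that may share reads with Rpl13a. The other 7 of these 8 genes were called in 24 to 29 of the 30 fits that left out 1 library. None of the 8 passed with the length trend removed, though all kept their direction, with 0.97 for Ccr7, 0.58 for Lyzl4 and 0.52 for Rpl13a-ps1 and Ly6d, and -0.84 for Usp42, -0.66 for Pde3b, -0.58 for Fryl and -0.57 for Usf3.

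Vcpip1, a deubiquitinase of the p97 pathway, was the one gene called as kept less in KO at 2 h. It had 158.8, 145.9 and 147.1 CPM in KO and 146.8, 153.9 and 134.2 CPM in WT libraries at 0 h, and 14.42, 12.27 and 14.20 CPM in KO and 22.16, 18.69 and 23.33 CPM in WT libraries at 2 h. The genotypes overlapped at 0 h and were apart at 2 h, with KO lower. The difference was -0.70 ± 0.13 (SE; adjusted p = 0.0378). It was -0.55 with the length trend removed (adjusted p = 0.174), and 12 of the 30 fits that each left out 1 library called it.

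Testing the 4 differences together, 612 of 13537 genes had a course that differed between KO and WT (4.52%, 4 degrees of freedom, edgeR quasi-likelihood test). Their largest difference was at 1 h for 484, at 4 h for 104, at 2 h for 19 and at 0.5 h for 5. With the length trend removed 86 genes were called (0.635%), 76 of them among the 612, and without the 1 h libraries, an alternative chosen after seeing the data, 6. Single libraries moved this count by over 1.5 times in 16 cases. It was 181, 331 and 315 without KO 4 h replicate 1, KO 4 h replicate 2 and WT 4 h replicate 3. At 2 h it was 378 and 329 without KO replicates 1 and 3, and 352 and 372 without WT replicates 2 and 3. At 1 h it was 79 and 10 without KO replicates 2 and 3, and 301, 73 and 22 without WT replicates 1, 2 and 3. It was 1488, 401 and 1452 without WT 0.5 h replicates 1, 2 and 3, and 1184 without KO 0 h replicate 3. The 1 h count alone was 335 and 23 without KO 1 h replicates 2 and 3, 220 and 172 without WT 1 h replicates 2 and 3, 0, 196 and 1949 without KO 0 h replicates 1, 2 and 3, and 88 and 127 without WT 0 h replicates 1 and 3. It was 487 without KO 2 h replicate 3, 532 without WT 2 h replicate 2 and 1278 without WT 0.5 h replicate 3.

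Contrasts that leave out the 0 h libraries still share the later ones. Between 0.5 and 4 h, 3 genes differed in their change (0.0222%), all kept more in KO: N4bp1 (1.29, adjusted p = 9.81e-09), Srsf4 (0.64, adjusted p = 0.0123) and Sqstm1 (0.47, adjusted p = 0.0115). With the length trend removed 13 genes were called (0.096%), 10 kept more in KO and 3 kept less. Without WT 0.5 h replicate 3, 72 genes were called, 19 kept more in KO and 53 kept less, so the direction of this contrast rests on that library. The Srsf4 and Sqstm1 calls were lost without KO 0.5 h replicate 2 (0.62 and 0.46, adjusted p = 0.0663 and 0.0615). With all 3 later times against 0.5 h, 974 genes were called (7.2%, 3 degrees of freedom), 190 with the length trend removed (1.4%) and 1 without the 1 h libraries.

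Most genes that already differed at 0 h were called the same way at 4 h. Of the 2158 genes higher in KO at 0 h (15.9% of those tested), 1431 were called higher at 4 h and 3 lower (of all genes 15.3% were higher and 18.7% lower at 4 h), and of the 1190 lower in KO (8.79%), 996 were called lower at 4 h and 3 higher. The median KO minus WT difference of the 2158, which were selected for it at 0 h, was 0.42 at 0 h, 0.37 at 0.5 h, 0.12 at 1 h, 0.36 at 2 h and 0.38 at 4 h. Between 0.5 and 4 h, without the 0 h libraries, 1 gene of each set was called (0.0222% of all genes), and the median was 0.01 for the higher and -0.15 for the lower set, beside -0.05 for all genes. In the test over the times from 0.5 to 4 h together, 297 genes of the higher set (13.8%) and 222 of the lower set (18.7%) were called, against 7.2% of all genes.

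With 0.0813% of all genes called at 4 h, a call in a small group would be rare, and none was found among 17 tested Regnase-1 targets, 34 cytokines and chemokines, 24 NF-kB pathway genes, 31 immediate early genes, 40 deadenylation, decapping and exonuclease genes or 24 genes of the IKK family and the caspase-8 complex. Their median differences in the change were 0.11, 0.03, 0.11, 0.14, -0.04 and -0.02, beside -0.06 for all genes. Immediate early genes fell furthest, with a median change of -4.23 in KO and -4.71 in WT cells. Zfp zinc-finger mRNAs, a large family of short-lived transcripts, had -2.10 in KO and -2.06 in WT cells over 282 members. A lower median difference, -0.29, was that of 35 type I interferon response genes, with 0 called at 4 h and a median change of 0.60 in KO and 0.85 in WT cells.

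In the test over the whole course these groups held 0, 0, 2, 3, 4 and 2 called members in the same order, and the interferon genes 4 of 35 (11.4%), against 4.52% of all genes. With the length trend removed the groups held 0, 0, 1, 1, 0 and 1, and the interferon genes 0, against 0.635% of all genes. The genes named next were those called before that step. The NF-kB members were Bcl3, an atypical IkB protein (0.65 at 4 h, adjusted p = 0.16), and Tnip1, a partner of A20 (0.21, adjusted p = 0.499). The interferon members were Ddx58 and Ifih1, cytoplasmic RNA sensors, Oas1a, an antiviral synthetase, and Zbp1, a nucleic acid sensor of cell death, with -0.19, -0.46, -0.36 and -0.42 at 4 h (adjusted p = 0.703, 0.31, 0.29 and 0.22). Among 22 mRNA-binding regulators of decay 4 were called: Zfp36, Tnrc6a, a partner of Argonaute, and Hnrnpd and Khsrp, proteins that bind AU-rich elements. The last 3 had their larger difference at 1 h (-0.90, -0.50 and -0.66), and with the length trend removed their adjusted p over the course were 0.0605, 0.0911 and 0.0911. For Zc3h12a itself the difference in the change was -0.08 at 4 h (95% interval -0.44 to 0.28, adjusted p = 0.935).

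**Figure D5:**
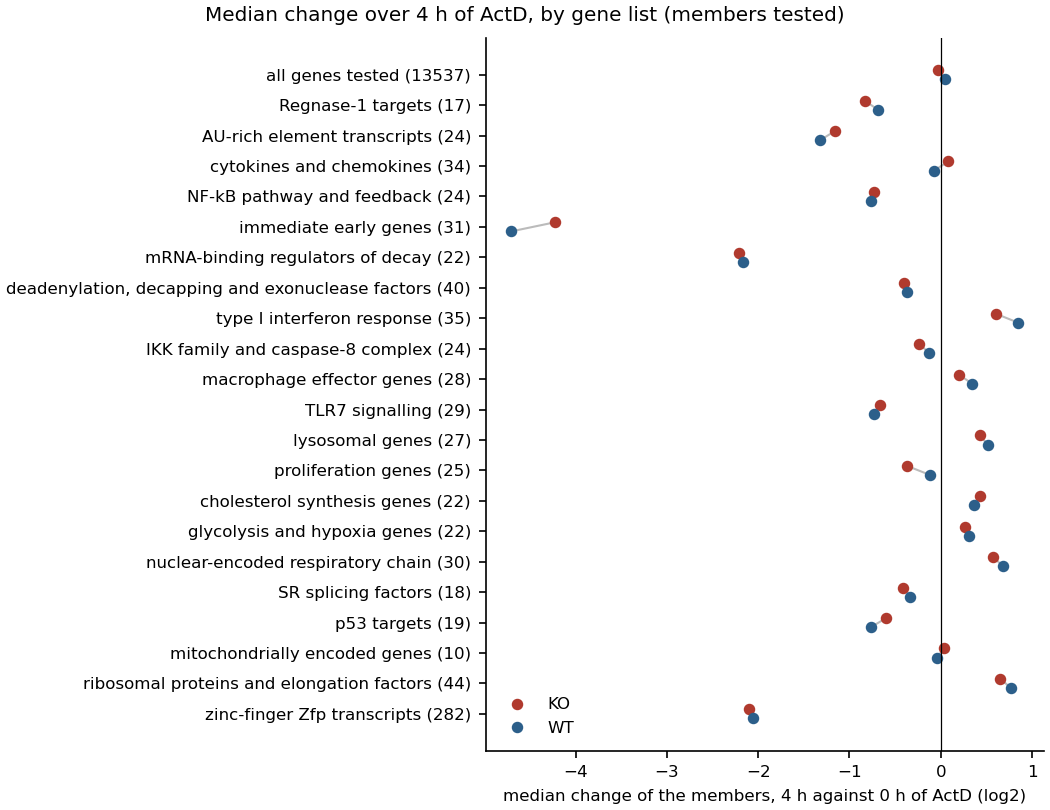
Median change between 0 and 4 h of ActD (x axis, log2) over the tested members of each gene list (y axis, number tested in brackets), in KO (red, upper point) and WT cells (blue, lower point). Immediate early genes lie at -4.23 in KO and -4.71 in WT, zinc-finger Zfp transcripts at -2.10 in KO and -2.06 in WT, and ribosomal protein mRNAs at 0.66 in KO and 0.77 in WT.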

How the data were processed

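Gene counts deposited by the authors were used as they stand. The submitters' processing notes name GSNAP and GRCm38, the labels' protocols describe single-end TruSeq reads of 50 bases, and the way reads were counted, with its annotation and strand, was not found there. The deposited RPKM column served only to check totals: counts came to 90.86 to 91.76% of the total it implies. Of 52636 identifiers, 52489 were found in GENCODE M21.

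Counts of the 30 libraries were fitted in edgeR 4.0.16 (R 4.3.3; TMM scaling, filterByExpr, quasi-likelihood F tests, 10 groups), with Benjamini-Hochberg adjustment over 13537 genes and a threshold of 0.05. The common biological coefficient of variation was 8.14%. Every replicate pair differed by more than sampling noise (chi-square per degree of freedom 3.38 to 45.66, highest within WT 0.5 h). Alternatives were DESeq2 1.42.0, other scalings and filters, a lowess trend on exon width (span 0.3) and leaving out each library. Replicates were numbered in accession order. Genes named were N4bp1, 9 cytokines, the 10 largest called differences each way at 4 h and 4 at other times (mean of at least 5 CPM, called over the course too) and 3 genes per list. H2-DM, Cd74 and Ciita were added after their values were seen. Genes, lists and alternatives were chosen with earlier results of these data known.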

Additional observations from a re-analysis of the deposited data

Results flagged for a closer look

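Each gene here is listed because its change under ActD differed between KO and WT in the interaction test (edgeR quasi-likelihood, adjusted p below 0.05) and the naming rule took it up. At 4 h against 0 h the KO minus WT differences were 1.22 for N4bp1, 1.47 for Slco4a1, 1.39 for Btla, 0.69 for Srsf4, 0.57 for Sqstm1, 0.56 for Rcsd1, 0.52 for H2-Eb1 and 0.52 for H2-Aa. They were -0.65 for Cd200r4, -0.52 for Fcgr1 and -0.43 for Hmox2.

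At 1 h they were 1.03 for Ccr7, 0.75 for Rpl13a-ps1, 0.75 for Lyzl4 and 0.74 for Ly6d, and -1.04 for Usp42, -1.03 for Usf3, -1.0 for Fryl and -0.95 for Pde3b. At 2 h they were 0.73 for N4bp1 and -0.70 for Vcpip1. Between 0.5 and 4 h they were 1.29 for N4bp1, 0.64 for Srsf4 and 0.47 for Sqstm1.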

How the results depend on the processing

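Numbers of genes called changed with the processing, and so did the calls of some single genes. Of 9 alternatives, 3 kept the 4 h calls of Fcgr1 and Hmox2, and 4 kept that of Cd200r4 and the 2 h call of Vcpip1. All 9 kept the 4 h calls of N4bp1, Sqstm1, Rcsd1, Srsf4 and H2-Aa. The whole-course count of 612 became 2070 with scaling to ribosomal protein and elongation factor mRNAs, 1824 without a filter, 8 at an adjusted p below 0.01, 1328 with all 36 libraries, 86 with the length trend removed, 1429 with DESeq2, 9 and 4 with a line in hours or log2 hours, and 6 without the 1 h libraries (added after seeing the data). The 974 calls among ActD times became, under the first 6 of these in the same order, 2556, 1878, 2, 1589, 190 and 1626, and 1 without the 1 h libraries. At 0.5 h the count of 0 became 24 without a filter and 3 with all 36 libraries. The calls at 1 h (171 kept more in KO, 666 less) became 3301 with ribosomal scaling (11 kept more, 3290 less), 1343 without a filter (610 and 733), 0 at 0.01, 1477 with 36 libraries (537 and 940), 0 without the length trend, 1556 with the 12 libraries of the contrast (588 and 968) and 1343 with DESeq2 (489 and 854), and the split was 289 and 513 with a CPM of at least 1 in 3 libraries. The 2 calls at 2 h became 1 with RLE size factors, 0 with ribosomal scaling, 45 without a filter, 1 at 0.01, 8 with 36 libraries, 1 without the length trend, 28 with 12 libraries and 15 with DESeq2. The 11 calls at 4 h (8 and 3) became 84 without a filter, 29 with the CPM filter (29 and 0), 5 at 0.01 (5 and 0), 40 with 36 libraries, 21 without the length trend, 6 with 12 libraries (6 and 0) and 54 with DESeq2. Splits were 13 and 0 with RLE and 12 and 0 with ribosomal scaling. The 3 calls between 0.5 and 4 h became 9 with RLE, 7 with ribosomal scaling, 80 without a filter, 16 with the CPM filter, 1 at 0.01, 20 with 36 libraries, 13 without the length trend, 1 with 12 libraries and 34 with DESeq2. Ribosomal scaling moved the median over all genes to -0.37 at 1 h and 0.07 at 4 h, against -0.04 and -0.06. The causes were not tested beyond this.

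Leaving out each library in turn gave 10 to 1488 genes for the whole course, 0 to 11 at 0.5 h, 0 to 1949 at 1 h, 1 to 5 at 2 h, 6 to 21 at 4 h, 77 to 1831 among ActD times and 1 to 72 between 0.5 and 4 h. At 0.5 h the count was 4 without WT 0.5 h replicate 1 or KO 0 h replicate 2 or 3, and 11 without WT 0.5 h replicate 3. The extremes among ActD times came without WT 1 h replicate 2 and WT 0.5 h replicate 1, and those between 0.5 and 4 h without KO 0.5 h replicate 2 and WT 0.5 h replicate 3. Without a filter Cxcl2 (0.56, adjusted p = 0.000318) and Il12b (0.41, adjusted p = 0.0493) were called at 4 h, and the other 7 cytokines were not called under any of 9 alternatives. No called difference of the genes flagged above changed sign. The signs of the other called genes were not compared between settings. No paired analysis was possible because the labels carry no replicate numbers.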
